A study of Homo sapiens with 2 samples.

Results

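The loops described here are short chromatin loops of HEK293T cells whose 2 anchors sit at the 2 ends of one contact domain, so that the loop forms the corner of that domain in the contact map. HEK293T is a transformed line derived from human embryonic kidney cells that expresses the SV40 large T antigen. Members were chosen by anchor distance and position alone. The anchors had to be at most 400 kb apart (start to start), and the centre of the upstream and of the downstream anchor had to lie within 50 kb of the start and of the end of 1 listed domain. This gave 763 loops, which were 50.6% of the 1507 loops of the study and 73.5% of the 1038 loops up to 400 kb (95% Wilson interval 70.7 to 76.1%). The share is what the rule found and carries no test.

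The study made in situ Hi-C libraries, in which crosslinked chromatin was cut with MboI and ends lying close together were ligated and sequenced, giving 2 libraries labelled as replicates of 1 group. Both were HEK293T cells labelled with formaldehyde crosslinking and no other treatment, and no other condition is labelled. Nothing says whether the replicates came from separate cultures. The deposited loops, domains and compartment scores are given once for the pair of libraries. Replicate error can therefore not be given for any value, and no difference was tested. Loops and domains were read from the same contacts, and loops of 1 map are not replicates of one another. Depth is known only through the contacts counted in each loop pixel. Members held 23 to 249, with a median of 88 (95% interval of the median 87 to 92), against 13 to 349 for all loops of the study.

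In the loop extrusion model, the cohesin complex reels chromatin into a growing loop until it meets the DNA-binding protein CTCF on both sides. A stalled loop then appears as a spot of frequent contact between its anchors, and the chromatin between them as a square of raised contact, the domain. A spot at the corner of such a square is called a corner loop, and the domain a loop domain. CTCF and cohesin were not measured in these tables, and the genes at the loops are not named because no annotation of the coordinates' build, hg19, was used here.

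The rule holds both anchor centres within 50 kb of the domain ends, and a loop that fitted several domains was given the closest, so nearness to the ends is largely set by the choice of members. Within those limits the offsets are a description of where the anchors lay. The larger of a loop's 2 offsets had a median of 10 kb, which is the width of 1 anchor for most loops. It was at most 10 kb for 433 of the 763 members (56.7%) and at most 25 kb for 693 (90.8%). The median upstream anchor centre lay 5 kb inside the domain start (interval 5 to 7.5 kb), with quartiles at 2.5 and 15 kb. The median downstream centre lay 2.5 kb inside the domain end (interval 0 to 5 kb), with quartiles 2.5 kb outside and 10 kb inside. Upstream, 587 centres were inside the domain (76.9%, interval 73.8 to 79.8%), 88 were on its start and 88 outside. Downstream, 408 were inside (53.5%, 49.9 to 57.0%), 161 on its end and 194 outside. Both centres were inside for 339 loops (44.4%) and both outside for 31 (4.06%).

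The inward position held for both anchor widths, but its difference between the 2 ends rests on how a domain's end is written. Of the 121 members with 5 kb anchors, 81.0% had the upstream and 57.0% the downstream centre inside. Of the 642 with 10 kb anchors, 76.2% and 52.8% did. Domain ends lie on a 5 kb grid. If each end is read as the start of the domain's last 5 kb bin rather than as its edge, a reading tried after the data were seen, the downstream share becomes 79.5% and the median 7.5 kb inside. No source used here says which reading applies, so the ends cannot be ordered. A 10 kb bin whose outer edge coincides with a domain end has its centre 5 kb inside, and the domain's start fell within the upstream anchor bin, edges included, for 339 members (44.4%). The domain's end fell within the downstream bin for 466 (61.1%), and both ends were in the bins for 224 (29.4%).

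**Figure D1:**
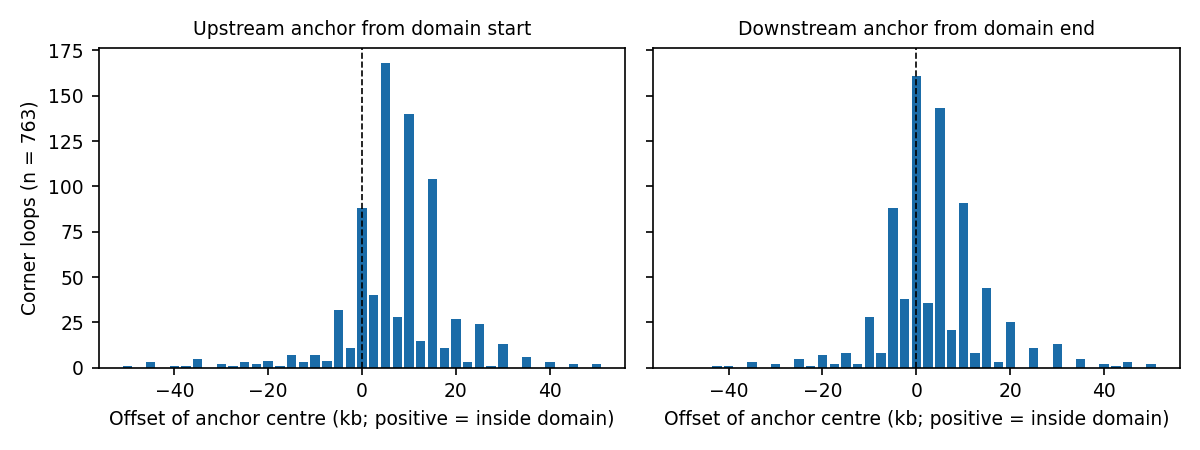
Number of corner loops (y axis, n = 763) by the offset of the anchor centre from the domain end (x axis, kb, in steps of 2.5 kb), for the upstream anchor and the domain start (left) and the downstream anchor and the domain end (right). Positive offsets are inside the domain and the dashed line is the domain end. Tall bars at multiples of 5 kb are the 10 kb anchors and the low bars between them the 5 kb anchors. The left peak is at 5 kb (168 loops) and the right peak at 0 (161 loops).

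Loop spans followed domain lengths and were slightly shorter as measured. The span runs from anchor start to anchor start, but the domain length from end to end. Anchors of 10 kb lying just inside both domain ends therefore give a span 10 kb short. The differences below include this unlike measure. The anchor distance ranged from 50 to 400 kb with a median of 190 kb (interval 180 to 200 kb), and the domains were 60 to 440 kb long with a median of 195 kb. The loop was shorter than its domain for 548 members (71.8%), equal for 89 (11.7%) and longer for 126 (16.5%), and the median difference was 10 kb short. The correlation between span and length (Spearman 0.979 over 763 loops) is largely set by the rule, which holds both ends within 50 kb. At short distances that tolerance is wide: for 50 members (6.55%) the larger offset exceeded 20% of the anchor distance.

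**Figure D2:**
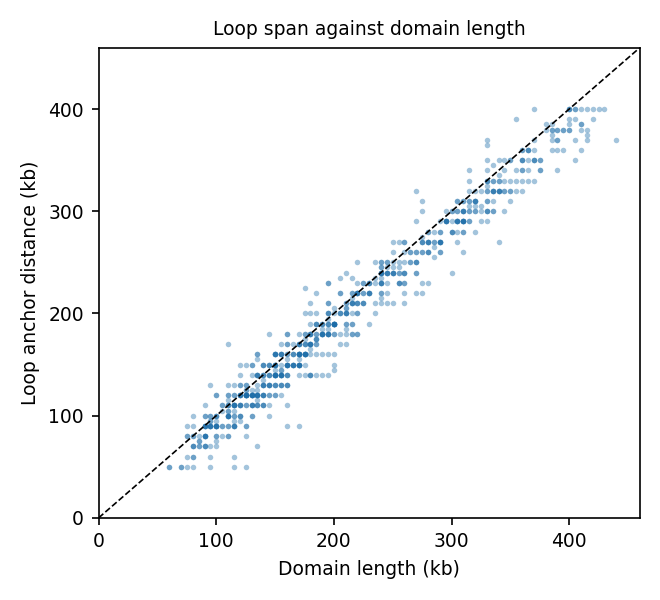
Anchor distance of each corner loop (y axis, kb) against the length of its domain (x axis, kb); each point is 1 of 763 loops and the dashed line marks equality. Distance is measured from anchor start to anchor start and length from domain end to domain end. Most points, 548 of 763, lie below the line.

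Several loops show the range of fit between loop and domain. In 28 loops both anchor centres lay exactly on the domain ends. The one of these with the most contacts joined chr17:19890001-19900000 and chr17:20010001-20020000, the corners of a domain at 19895001 to 20015000, with 201 observed contacts. It was enriched 2.53-fold over the donut expectation, the contacts expected from the ring of pixels around the loop (95% Poisson interval 2.19 to 2.91, counting error of the observed contacts only). The next 4 lay on chromosome 6 (26330001 to 26560000, 162 contacts), chromosome 7 (140210001 to 140360000, 141 contacts), chromosome 3 (69200001 to 69360000, 122 contacts) and again chromosome 7 (135480001 to 135700000, 116 contacts). All 5 were enriched between 2.19-fold and 2.53-fold and had 10 kb anchors. The choice fixed that width, because the centre of a 5 kb anchor lies 2.5 kb off the 5 kb grid of domain ends.

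At the edge of the rule the loops no longer traced their domain closely. The 5 members with the largest offset each had 1 anchor 50 kb from a domain end. On chromosome 2 a 50 kb loop (71090001 to 71150000, 114 contacts) ended 50 kb short of the end of a 115 kb domain, and it had the lowest donut enrichment of all members, 1.78-fold (1.47 to 2.13). On chromosome 5 a 50 kb loop (137410001 to 137470000, 105 contacts, 1.97-fold) stopped 50 kb inside the start and 25 kb inside the end of a 125 kb domain. On chromosome 1 the upstream anchor of a loop at 43370001 to 43550000 lay 50 kb outside the domain (121 contacts, 2.00-fold). The other 2 were on chromosome 6, at 117660001 to 117880000 (83 contacts, 2.52-fold) and 119280001 to 119440000 (74 contacts, 2.19-fold). In both, the other anchor centre lay exactly on its domain end. The nearest loops left out missed by 2.5 to 5 kb. They lay on chromosomes 14, 1, 10, 17 and 2, with larger offsets of 52.5 or 55 kb, 38 to 139 contacts and enrichments of 2.10-fold to 3.72-fold. The longest members spanned 400 kb, and the shortest corner loops above that limit spanned 405 kb on chromosomes 11 and 5, with 38 and 44 contacts.

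Corner loops carried more contacts than the 275 loops up to 400 kb that were off domain corners, at every distance. Under the 50 kb tolerance their enrichment was not higher. The median observed count was 88 for members (quartiles 70 and 108.5) and 71 (54.5 and 87) for off-corner loops, a ratio of 1.24. Off-corner loops were longer, with a median of 250 kb, so the sets were also compared by distance. Up to 100 kb the medians were 99 contacts in 100 members and 78.5 in 44 off-corner loops. Between 100 and 200 kb they were 95 in 324 members and 74 in 61 others. From 200 to 300 kb the figures were 88 (207 members) and 68 (97 others), and from 300 to 400 kb they were 72.5 (132 members) and 64 (73 others). The interquartile ranges of the 2 sets overlapped in every band, and in the longest band so did the intervals of the medians (69 to 79 against 57 to 74).

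The local background was higher too. The median donut expectation was 35.5 contacts for members and 26.3 for off-corner loops, a ratio of 1.35. Enrichment over the donut was slightly lower in members, with medians of 2.55-fold (interval 2.51 to 2.59) and 2.65-fold (2.56 to 2.72). The difference was -0.06 on the log2 scale (interval -0.10 to -0.0010, combined from the intervals of both medians), and off-corner loops were longer. Without loops of 1 pixel it was -0.0036 (-0.074 to 0.061), and with a 25 kb tolerance -0.013 (-0.054 to 0.032). Its interval also reached above 0 without nested domains (-0.036) and without chromosome 1 (-0.042). With a 10 kb tolerance the sign was reversed, at 0.045 (-0.00063 to 0.083). From 100 to 400 kb the medians of the 2 sets differed by at most 0.03 on the log2 scale. Up to 100 kb the member median was lower by 0.18 (2.29-fold against 2.60-fold), with overlapping intervals of 2.22 to 2.36 and 2.27 to 2.75. An observed count of at least 3 times the donut was reached by 161 members (21.1%), against 33.6% of all loops of the study and 29.1% of off-corner loops. The caller lists only loops past its own thresholds, so low enrichments are missing from both sets. The lowest member values were 1.78-fold for the donut and, for the highest of the caller's 4 expectations, 1.56-fold.

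**Figure D3:**
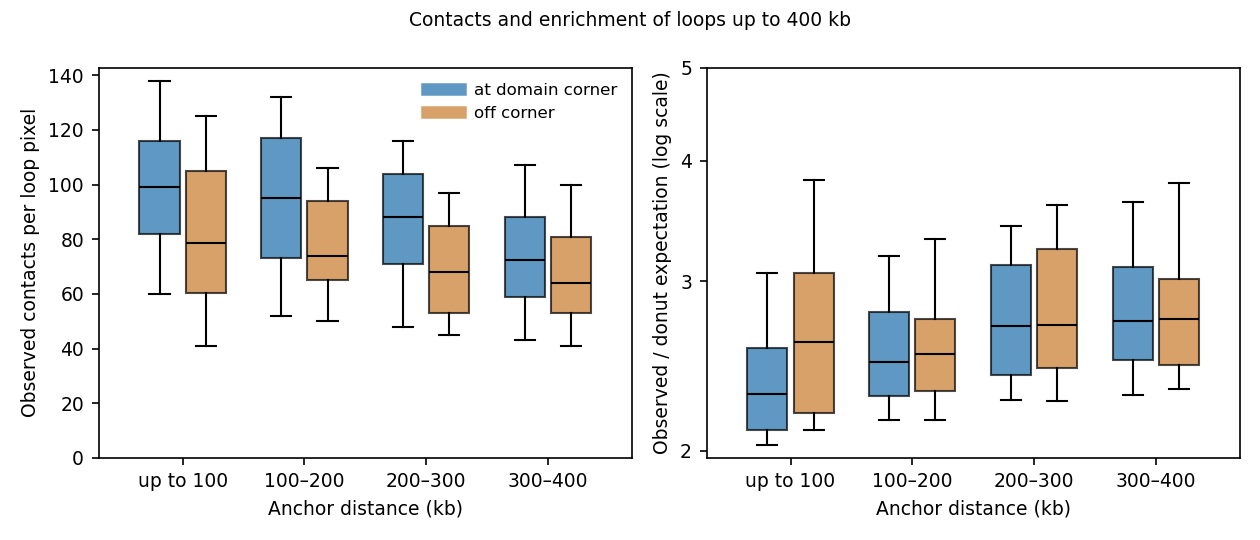
Observed contacts per loop pixel (left, linear axis from 0) and observed contacts over the donut expectation (right, log axis) by anchor distance in kb, for corner loops (blue) and off-corner loops up to 400 kb (orange). Lines are medians, boxes quartiles and whiskers the 10th and 90th percentiles. Blue medians are higher on the left in each band (99 against 78.5 up to 100 kb) and near the orange ones on the right beyond 100 kb.

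Among the members themselves, contacts were fewer and enrichment higher at longer distance. The median enrichment was 2.29-fold up to 100 kb, 2.47-fold from 100 to 200 kb, 2.69-fold from 200 to 300 kb and 2.73-fold from 300 to 400 kb. Over the 763 members the Spearman correlation with distance was 0.329 for enrichment and -0.233 for contacts. That between contacts and enrichment was -0.479. Enrichment is computed from the same contacts, and a loop on few contacts needs a higher ratio to be listed, so this relation is given as a description. Anchor width moved with it: the 121 members with 5 kb anchors had a median of 47 contacts and 3.41-fold enrichment, and the 642 with 10 kb anchors had 96 contacts and 2.47-fold. A 5 kb pixel covers a smaller area of the map than a 10 kb pixel. Width made up similar shares of both sets, with 84.1% of members and 85.8% of off-corner loops at 10 kb.

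The 6 loops of highest donut enrichment among members with at least 20 contacts all had 5 kb anchors. The first, on chromosome 18, joined 60680001 to 60685000 and 60985001 to 60990000, 305 kb apart, with 26 contacts against 4.44 expected from the donut, 5.86-fold (3.83 to 8.58). All of its 4 expectations were between 4.44 and 4.79, so it stood 5.43-fold above the highest of them. The second, on chromosome 12 (122135001 to 122215000, 23 contacts), was enriched 5.06-fold (3.21 to 7.59). The third, on chromosome 4 (141780001 to 142060000), rested on 62 contacts and reached 5.03-fold (3.85 to 6.44). A loop on chromosome 2 (121450001 to 121840000, 61 contacts) was enriched 4.68-fold over the donut but 3.04-fold over the lower left area, its highest expectation. The fifth and sixth were on chromosome 4 (87415001 to 87820000, 43 contacts, 4.61-fold) and chromosome 3 (98535001 to 98715000, 44 contacts, 4.44-fold). The 6 intervals overlap, so their order is not resolved by the counts.

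The loops with the most contacts were of ordinary enrichment. A 110 kb loop on chromosome 13 (80000001 to 80120000) held 249 contacts, the most of any member. Its 4 expectations were between 101 and 126, giving 2.46-fold over the donut (2.17 to 2.79) and 1.97-fold over the vertical strip. It was followed by loops on chromosome 4 (183990001 to 184180000, 214 contacts, 2.92-fold), chromosome 17 (the loop at 19890001 described above, 201 contacts), chromosome 1 (241790001 to 242010000, 195 contacts, 2.41-fold) and chromosome 6 (32850001 to 32930000, 180 contacts, 2.11-fold). The first 4 were each merged from 3 or more pixels.

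The 4 local expectations showed which surroundings of a corner loop were rich in contacts. Besides the donut, the caller uses the lower left area, which lies towards the diagonal and so between the anchors, and a horizontal and a vertical strip through the pixel, which hold the contacts of one anchor with the sequence around the other. Median expectations were 38.8 contacts for the lower left, 41.3 for the horizontal and 41.2 for the vertical strip, against 35.5 for the donut. All 3 exceeded the donut in 621 members (81.4%, interval 78.5 to 84.0%) and in 176 of 275 off-corner loops (64.0%, 58.2 to 69.4%). They also did in 128 of the 162 corner loops of 400 kb to 2 Mb (79.0%, 72.1 to 84.6%). The higher share was thus not particular to the members. The highest expectation was a strip in 657 members (86.1%), horizontal in 333 and vertical in 324, and the lower left in the other 106. A strip was also the highest in 85.8% of off-corner loops and in 85.8% of the longer corner loops, so members did not stand apart in this. It was the donut in none of the members and in 5 off-corner loops.

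The 2 strips were about equally rich. The horizontal strip exceeded the vertical in 383 of 763 members (50.2%), the median ratio of the larger to the smaller was 1.10, and it passed 1.5 in 1 member. The donut-relative medians were 1.17 for each strip in members and 1.14 in off-corner loops. Against the highest of the 4 expectations the median member enrichment was 2.05-fold (2.02 to 2.07) and that of off-corner loops 2.17-fold (2.13 to 2.24). At least 2-fold was reached by 434 members (56.9%), against 68.7% of all loops and 69.8% of off-corner loops. Both of those sets hold longer loops. Up to 100 kb the shares in members and off-corner loops were 43.0% and 70.5%. They were 52.5% and 60.7% from 100 to 200 kb and 63.8% and 68.0% from 200 to 300 kb. From 300 to 400 kb they were 67.4% and 79.5%. The Wilson intervals overlapped in each band beyond 100 kb. In the authors' deposited table the highest of the 4 q-values was at most 0.01 in 609 members (79.8%), near the 80.8% of all loops.

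The lower left area, which at a corner lies largely inside the domain, was richer the closer the anchors lay to the domain ends. Its expectation was a median of 1.10 times the donut in members (interval 1.09 to 1.11) and 1.06 times in off-corner loops (1.05 to 1.08). In the 162 corner loops of 400 kb to 2 Mb it was 1.14 times (1.11 to 1.16). Within the members it was 1.13 times where the larger offset was at most 10 kb (433 loops), 1.07 times above 10 and up to 25 kb (260 loops) and 1.04 times above 25 kb (70 loops). The intervals of these medians were 1.12 to 1.14, 1.06 to 1.09 and 1.00 to 1.07, so that of the closest loops overlapped neither of the others. These intervals also treat loops of 1 map as independent, and no test was made. Domains, squares of raised contact, were called from the same contacts, and the rule itself used the offset. The relation is therefore partly set by the domain call and is given only as a description. Donut enrichment was 2.62-fold, 2.50-fold and 2.41-fold in the same order, on 88, 88 and 92 contacts. Up to 100 kb the lower left ratio did not separate corner from off-corner loops (1.05 and 1.06).

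**Figure D4:**
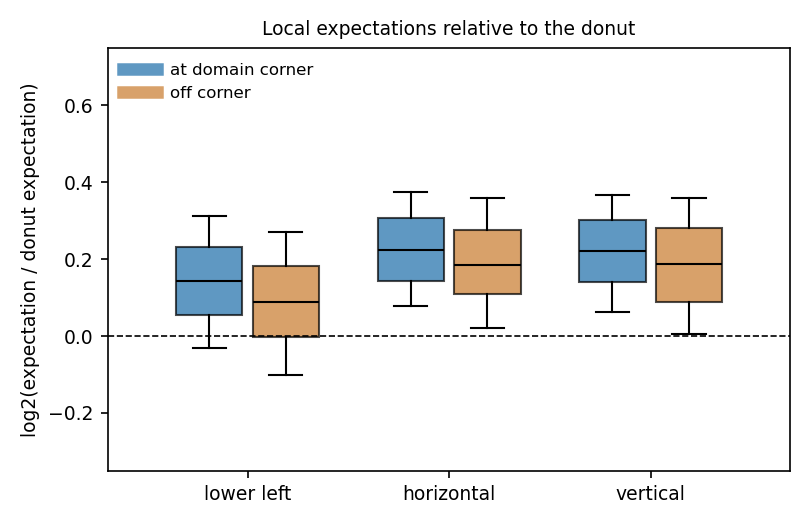
Expected contacts in the lower left, horizontal and vertical neighbourhoods relative to the donut (y axis, log2 ratio) for 763 corner loops (blue) and 275 off-corner loops up to 400 kb (orange). Lines are medians, boxes quartiles, whiskers the 10th and 90th percentiles, and the dashed line is equality with the donut. Medians lie above the line in all 6 boxes and the blue lower left box (median ratio 1.10) is above the orange one (1.06).

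The members with the lowest enrichment over the highest expectation each had a strip as that expectation, as did 86.1% of all members. A high expectation is part of how these loops were chosen. The lowest, on chromosome 17 (59500001 to 59640000), had 116 contacts against 74.4 in the horizontal strip, 1.56-fold (1.29 to 1.87), but 2.11-fold over the donut. A loop on chromosome 4 (160120001 to 160370000) had 122 contacts against 75.3 in the vertical strip and 52.5 in the horizontal, 1.62-fold and 2.33-fold over the donut. The other 3, on chromosome 1 (157950001 to 158080000 and 236280001 to 236660000) and chromosome 14 (70290001 to 70490000), also had the horizontal strip as the highest and were enriched 1.59-fold to 1.62-fold over it.

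Corner loops were merged from more pixels than off-corner loops. The caller merges neighbouring enriched pixels into 1 loop, and the number merged was above 1 for 497 members (65.1%, interval 61.7 to 68.4%), against 56.3% of all loops of the study and 38.9% (33.3 to 44.8%) of the off-corner loops. By distance the shares in members and off-corner loops were 55.0% and 27.3% up to 100 kb, 67.6% and 44.3% from 100 to 200 kb, 68.1% and 43.3% from 200 to 300 kb, and 62.1% and 35.6% from 300 to 400 kb. The Wilson intervals did not overlap in any of the 4 bands, but they treat loops of 1 map as independent, so this is a description and no test. Of the members, 266 came from 1 pixel, 275 from 2, 132 from 3 and 90 from 4 or more. The merged pixels had a radius with a median of 5 kb (quartiles 0 and 7.45 kb, largest 24.3 kb), against a median of 0 off the corners.

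More pixels went with more contacts. The median was 85 contacts in members of 1 pixel, 86 in those of 2, 99.5 in those of 3 and 98.5 in those of 4 or more, and the donut enrichment was 2.52-fold, 2.50-fold, 2.58-fold and 2.72-fold. Off-corner loops of 1 pixel had 65 contacts. The part of cluster size in the higher counts of corner loops was not tested. Domain score, the domain caller's own number, was also higher with more pixels, with medians of 1.32, 1.40, 1.45 and 1.51. The 5 largest clusters held 7 to 9 pixels. The loop of 9 lay on chromosome X (109405001 to 109655000) with 5 kb anchors, 136 contacts, 3.20-fold enrichment and a radius of 9.16 kb. The others were on chromosome 1 (157170001 to 157470000, 8 pixels, 93 contacts; 24525001 to 24720000, 7 pixels, 57 contacts; and 116670001 to 117040000, 7 pixels, 93 contacts) and chromosome 17 (41655001 to 41755000, 7 pixels, 63 contacts). The largest radius, 24.3 kb, was that of the chromosome 6 loop at 26330001 to 26560000, whose anchor centres lay on the domain ends. The next 4, with radii of 17.0 to 17.7 kb, lay on chromosomes 10, 2, 6 and 12.

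**Figure D5:**
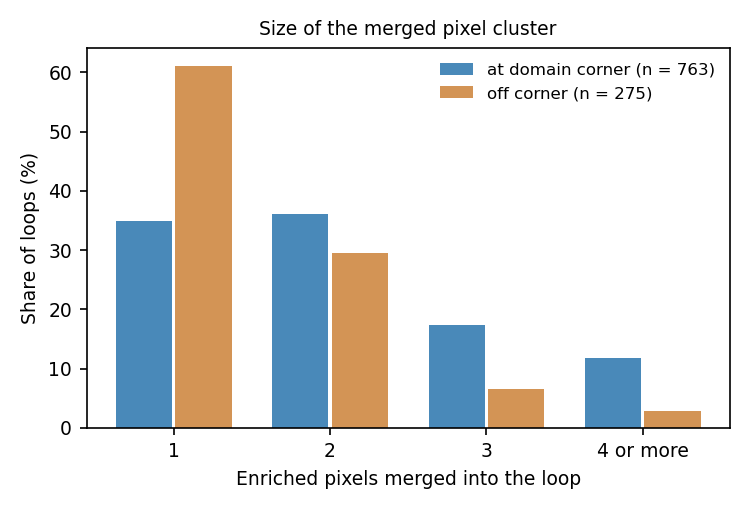
Share of loops in percent (y axis, from 0) by the number of enriched pixels merged into the loop (x axis), for 763 corner loops (blue) and 275 off-corner loops up to 400 kb (orange). Single-pixel loops were 34.9% of the corner loops and 61.1% of the off-corner loops.

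The members lay in 755 domains, 19.6% of the 3845 listed and 25.5% of the 2881 up to 400 kb, counting in the latter the 736 that were themselves that short. The median domain score was 1.38 for those 755 and 1.17 for the 2291 other domains between 60 and 440 kb. Contacts at the corner may enter that score, so it is not independent of the loops. Within the members the score was unrelated to contacts (Spearman -0.008) and weakly related to donut enrichment (0.254). The 5 members in the highest scoring domains lay on chromosomes X, 10, 4, 3 and 6. Their contacts, in that order, were 132, 69, 56, 87 and 108, and their enrichments were 2.29-fold to 3.27-fold, within the range of ordinary members. The loop of chromosome X (109690001 to 110100000) overshot its domain end by 40 kb, while the other 4 had both anchors within 17.5 kb of the domain ends. Another domain ended within 50 kb of the start for 339 members (44.4%) and started within 50 kb of the end for 337 (44.2%). There was such a neighbour on both sides for 164 (21.5%) and on neither for 251 (32.9%). The domain held a smaller one for 56 members and lay inside a larger one for 57. Of the 162 corner loops of 400 kb to 2 Mb, 53.7% had such a neighbour at the domain start and 48.1% at its end. It was on both sides for 29.0% and on neither for 27.2%. Their domain held a smaller one for 9 and lay inside a larger one for 1. These shares were not counted over all domains.

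Compartment scores divide each chromosome into stretches of opposite sign, on 1 Mb bins that are longer than any of these loops. Both anchors were in positive bins for 497 members (65.1%, interval 61.7 to 68.4%), in negative bins for 230 (30.1%) and in bins of opposite sign for 36 (4.72%). Off-corner loops had 63.6%, 31.3% and 5.09%, so the sets were alike in this respect. Among all signed bins 48.9% were positive. Without chromosomes 4, 5, 11, 13, 14 and 22, whose scores lie in a few bins or follow the arms, 65.0% of members were in positive bins, against 44.3% of all bins. No source used here says which sign marks the active A compartment. The sign also does not mark the same rank on every chromosome. A score of -0.052 was at the 60.3rd percentile of chromosome X, and 0.0035 at the 43.8th of chromosome 17. Bins of opposite sign on different chromosomes can therefore be of like rank. The anchors fell in different bins for only 151 members, of which 36 (23.8%) differed in sign.

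Corner loops in the 2 signs were alike in most readings. The median contacts were 91 (quartiles 71 and 110) in positive and 86 (70.25 and 106.75) in negative bins. Enrichment was 2.54-fold and 2.55-fold, the distance 180 and 200 kb, and the larger offset 10 kb in both. The 36 loops with anchors of opposite sign had 82.5 contacts, 2.61-fold enrichment and a distance of 200 kb. The mean of the 2 anchors' score ranks within their chromosome had a median at the 65.2nd percentile for members and the 64.8th for off-corner loops.

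Corner loops were found on every chromosome with listed loops. Chromosome 1 had the most (109), then chromosomes 6 (77), 10 (55) and 2 (54). Per megabase of scored sequence chromosomes 1 (0.474), 6 (0.456) and 17 (0.450) were the densest. Chromosomes X (0.106) and 16 (0.0864) were the sparsest apart from chromosome 22, where no loop up to 400 kb is listed. All loops up to 400 kb were 137 in 230 Mb, 95 in 169 Mb and 47 in 80 Mb on the first 3. On chromosomes X and 16 they were 26 in 151 Mb and 13 in 81 Mb, so high and low density were not particular to corner loops. The share of loops up to 400 kb that were at a corner was highest on chromosome 13 (14 of 16) and chromosome 7 (41 of 48, 85.4%) and lowest on chromosome 19 (11 of 22) and chromosome 16 (7 of 13). By distance the share was 69.4% up to 100 kb, 84.2% from 100 to 200 kb, 68.1% from 200 to 300 kb and 64.4% from 300 to 400 kb. Median spans were shortest on chromosomes 19 (110 kb) and 17 (135 kb) and longest on chromosome 13 (315 kb). The median upstream centre lay 5 to 15 kb inside the domain on all 22 chromosomes, and the median downstream centre 0 to 5 kb inside. The shortest members spanned 50 kb, among them loops on chromosomes 1 (154450001 to 154510000, 131 contacts), 17 (42020001 to 42080000, 166 contacts) and 19 (45930001 to 45990000, 86 contacts), each enriched 2.00-fold to 2.17-fold.

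Longer corner loops had fewer contacts and higher enrichment than the members. The 162 loops of 400 kb to 2 Mb at a corner under the same 50 kb tolerance had a median of 65 contacts (63 to 68) and 2.92-fold enrichment (2.84 to 3.06). Their anchors also lay mostly inside the domain, with 82.7% upstream and 63.0% downstream. The downstream share rests on how a domain's end is written, and the other reading was not counted for these loops. Their larger offset was at most 10 kb in 43.2% against 56.7% of the members (intervals 35.8 to 50.9% and 53.2 to 60.2%). More than 1 pixel had been merged in 61.7%, against 65.1% of the members, with overlapping intervals.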

How the data were processed

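In situ Hi-C was made from 2 HEK293T libraries of 1 group. The submitters' processing notes name the build hg19 and the tools BWA 0.7.8, FastQC 0.11.7 and Picard. No source used here says how the libraries were combined. The deposited loop table, made with HiCCUPS per its name, holds for each loop a count of observed contacts, 4 expected contact values, q-values and the merged pixels. The deposited domain table gives the caller's score, and the deposited compartment table a score per 1 Mb bin. All were used as the authors gave them.

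Each loop was matched to the domain with the smallest larger offset. The matching was tested on loops planted at known offsets. Poisson intervals (enrichment), Wilson intervals (shares) and order-statistic intervals (medians) are at 95% and cover counting error only or, for medians, the spread over loops. Loops share 1 map, so no test was made. The alternatives varied the tolerance, the distance limit, positions, resolution and domains. Members, lists and named regions (extremes of each measure) were chosen with earlier results of these data known. Python 3.11.15, pandas 2.3.3, numpy 2.4.6 and scipy 1.17.1 were used. Tables of genes and promoters supplied for another build were not used.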

Additional observations from a re-analysis of the deposited data

How the results depend on the processing

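Of 148 alternative values for 15 results, 119 stayed within the interval of the reported value or within 1.5 times a reported count. The number of members became 433 with a 10 kb tolerance, 424 up to 200 kb and 497 when loops of 1 pixel were left out. Their share of loops up to the distance limit became 66.8% and 41.7% with tolerances of 25 and 10 kb, 80.2% up to 200 kb, 63.0% without nested domains and 82.3% without loops of 1 pixel. With a 10 kb tolerance, 70.0% of upstream and 46.4% of downstream centres were inside the domain. With domain ends moved by 5 kb, the downstream share was 79.5% and the median offset -7.5 kb, where a negative offset is inside; this reading was added after the data were seen. Median contacts were 96.5 up to 200 kb, 94 up to 300 kb, 96 for 10 kb anchors alone and 94 without loops of 1 pixel, whose removal also took the median radius to 7.07 kb. Donut enrichment was 2.62-fold with a 10 kb tolerance, 2.44-fold up to 200 kb, 2.51-fold up to 300 kb and 2.47-fold for 10 kb anchors. Over the highest expectation it was 2.08-fold with a 10 kb tolerance, 2.00-fold up to 200 kb and 1.996-fold for 10 kb anchors. The log2 enrichment difference from off-corner loops (-0.06 as reported) was 0.045 with a 10 kb tolerance and -0.18 up to 100 kb. That of contacts (0.31) was 0.10 with a 10 kb tolerance, where loops 10 to 50 kb from a corner join the off-corner set, 0.21 without nested domains and 0.18 from 300 to 400 kb. The cause of the other shifts was not tested. No paired analysis was possible because the tables hold no column for either library, and for the same reason no library could be left out. Depth limits the reading of single loops: with 23 to 249 contacts, the counting intervals of the 6 most enriched members overlap.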

Other observations

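Some corner loops were strung together. With anchor centres within 10 kb counted as shared, 65 of the 763 members (8.52%) took part in a tandem arrangement. In it the downstream anchor of 1 loop was shared in this sense with the upstream anchor of the next. Anchors so counted can be neighbouring bins, as in the run of 3 below. There were 33 such pairs, 31 of them standing alone. The single run of 3 loops lay on chromosome 14 and spanned 400 kb between the outermost anchor centres. Its loops joined 20920001 to 20930000 with 21070001 to 21080000 (92 contacts, 2.37-fold over the donut), 21080001 to 21090000 with 21150001 to 21160000 (123 contacts, 2.60-fold), and 21160001 to 21170000 with 21320001 to 21330000 (134 contacts, 2.79-fold). The same upstream anchor was shared by 18 members and the same downstream anchor by 38. Counting all listed loops, 242 members (31.7%) shared an anchor with some other loop. The same shares were not counted for off-corner loops or for all loops, so they are not given as a trait of corner loops.

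In 8 domains, 2 member loops were listed at the same corner, and no domain had more. In the chromosome 1 domain at 8045001 to 8380000 both loops ended at 8370001 to 8380000, and their upstream anchors were 30 kb apart, with 90 and 108 contacts. In the domain at 94495001 to 94800000 of the same chromosome both anchors differed (91 and 105 contacts). In that at 155060001 to 155140000 a 5 kb loop with 40 contacts enclosed a 10 kb loop with 97. These 3 are the first of the 8 in order of position. A shorter loop also lay inside the longer one in the chromosome 11 domain at 27195001 to 27515000 (71 contacts outside, 70 inside) and the chromosome 17 domain at 66250001 to 66450000 (117 and 121), which were chosen after their values were seen.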
